A study of Mus musculus with 11 samples.

Results

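The SR proteins and the hnRNP splicing factors were followed in hippocampal RNA from the adult offspring of mice exposed to particulate matter (PM) during pregnancy. Members were every gene named Srsf with a number or Hnrnp with a suffix, together with Tra2a, Tra2b, Srrm1 and Srrm2, and names of opposite-strand transcripts were left out. This gave 35 of the 24421 gene names in the count tables, 15 of them SR or SR-related genes and 20 of them hnRNP genes. All 35 had enough reads to be tested, among 14982 tested genes.

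The study comprised 11 hippocampal libraries, 5 labelled vehicle and 6 labelled PM. The labels describe pregnant mice that took PM at 200 µg/kg, or normal saline as the vehicle, through the nose on days 9, 12 and 15, gave birth on day 21, and had offspring sampled at 14 to 18 weeks. Vehicle libraries 1 to 3 and PM libraries 1 to 3 are taken here as a first set, and vehicle 4 and 5 with PM 4 to 6 as a second set, in whose labels the library numbering starts again and the dosing text is added. The exposure was to the dam and not to the sampled animal. No label used here gives the strain, the sex, the litter or whether libraries come from separate animals, so p-values measure the spread between these libraries, which may in part be technical.

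SR proteins carry RNA recognition motifs and a tail rich in alternating arginine and serine, the RS domain, and mostly bind exonic enhancers and recruit the spliceosome. Kinases of the SRPK and CLK families phosphorylate the RS domain, which controls the entry of these proteins into the nucleus and into nuclear speckles. The hnRNP proteins coat nascent transcripts, and many of them bind exonic or intronic silencers and oppose SR proteins. Many genes of both families limit their own output through exons or introns that send the transcript to nonsense-mediated decay, and in neurons both families set the inclusion of many alternative exons.

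The libraries held 6012116 to 17763893 reads assigned to genes. Levels below are in CPM, a gene's counts relative to its library's total after scaling by the trimmed mean of M values (TMM). The groups differed in how reads were distributed before any gene was considered. Reads counted to no annotated feature were 60.9 to 62.0% of counted reads in the vehicle libraries. They were 18.8 to 21.4% in the first PM libraries and 29.3 to 34.0% in the second. Whether the counting used strand is not given, so this share may hold reads outside exons or exonic reads on the other strand. Reads with more than 1 alignment were 4.21 to 4.75% in vehicle and 7.22 to 9.90% in PM libraries. The sets also differed in sex-linked RNA, since Xist stood at 1.74 to 3.16 CPM in the first vehicle libraries and 2280 to 2420 CPM in the second, where 4 Y-linked genes were at 0, against a sum of 191 to 220 CPM in the first. In the PM libraries Xist ranged from 0.355 to 207 CPM in the first set and from 0.582 to 919 CPM in the second. The 4 Y-linked genes there summed to 0.0716 to 130 CPM and 0 to 161 CPM. The labels of all 11 libraries name both the removal of ribosomal RNA and polyA RNA, so they do not settle how RNA was selected in either group. The share of reads counted to no feature separates vehicle from PM completely. An effect of PM and a difference in library type or strand between the groups cannot be told apart in any value below. The part of sex-linked differences was not tested.

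The tissue markers fitted the labelled hippocampus, with 1640 to 1970 summed CPM of 8 excitatory neuron markers in vehicle and 1760 to 2760 in PM libraries, against 50.9 to 58.6 and 52.2 to 77.9 CPM for 5 striatal markers. Of the 8 excitatory markers 4 rose and 2 fell. Their sum is mostly Slc17a7, at 886 to 1105 CPM in vehicle and 1104 to 2004 in PM. The 2 that fell were Prox1, at 117 to 167 CPM in vehicle and 27.9 to 47.5 in PM, and Neurod6, at 269 to 354 and 170 to 218. The 5 astrocyte markers summed to 6580 to 6970 CPM in vehicle and 2640 to 4980 in PM libraries, but 2 of them rose and 2 fell. The sum is mostly Slc1a2, at 5576 to 6016 CPM in vehicle and 1809 to 3525 in PM, whereas Gfap went from 185 to 227 CPM in vehicle to 283 to 621 in PM and Aldh1l1 from 19.6 to 22.3 CPM to 46.2 to 60.8. The 5 oligodendrocyte markers summed to 3590 to 4570 and 3830 to 8900. Interneuron markers summed to 579 to 649 CPM in vehicle and 433 to 574 in PM, though 2 of the 5 rose and 1 fell. Microglial markers summed to 161 to 183 and 194 to 271 CPM, and endothelial markers to 135 to 152 and 173 to 297. Choroid plexus markers varied within both groups, from 73.1 to 1280 CPM in vehicle and 33.6 to 2490 in PM. Pituitary markers reached 1.43 CPM in vehicle and 21.1 CPM in PM, while of the blood markers the globin genes Hba-a1, Hba-a2, Hbb-bs and Hbb-bt were listed at 0 in every library. The remaining blood marker, Alas2, stood at 15.0 to 18.1 CPM in vehicle and 2.19 to 8.95 in PM libraries. In bulk tissue fewer cells of a type and less RNA per cell cannot be told apart, and the part of cell composition in the results below was not tested.

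The feature that separates the families is visible in the coding sequence. In GENCODE M21 (build GRCm38), neighbouring arginine and serine codons came to between 4.1 (Srsf9) and 23.5 (Srsf2) per 100 codons in the SR and SR-related genes and between 0.3 and 2.5 in the hnRNP genes. Srrm2 held the most by number, 318 in 2703 codons. The 90 bases of each coding sequence that hold the most such neighbours are shown, 5′ to 3′, for members on which the results turn, with arginine and serine codons in capitals. Srsf2 and Srsf9 mark the ends of the range, and Srrm2 and Srrm1 had the largest falls in the first PM set.
Srsf2: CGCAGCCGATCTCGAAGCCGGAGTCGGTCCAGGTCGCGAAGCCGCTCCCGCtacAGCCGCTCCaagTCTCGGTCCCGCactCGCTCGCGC
Srsf3: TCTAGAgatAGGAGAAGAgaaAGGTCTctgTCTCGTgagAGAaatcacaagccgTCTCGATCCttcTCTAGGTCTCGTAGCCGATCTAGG
Srsf9: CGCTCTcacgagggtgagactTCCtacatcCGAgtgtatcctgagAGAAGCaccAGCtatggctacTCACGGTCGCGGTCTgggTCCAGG
Tra2b: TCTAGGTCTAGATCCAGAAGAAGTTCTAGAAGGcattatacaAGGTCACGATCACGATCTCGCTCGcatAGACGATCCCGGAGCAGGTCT
Srrm1: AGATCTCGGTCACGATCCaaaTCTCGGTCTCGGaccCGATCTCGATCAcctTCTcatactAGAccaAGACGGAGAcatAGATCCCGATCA
Srrm2: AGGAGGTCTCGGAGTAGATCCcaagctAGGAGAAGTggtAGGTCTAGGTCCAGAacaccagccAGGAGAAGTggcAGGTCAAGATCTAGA

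The hnRNP A proteins carry a glycine-rich tail in place of an RS domain, which mediates contacts between proteins. Glycine codons made up 27.5% of Hnrnpa0, 27.4% of Hnrnpa3, 24.9% of Hnrnpa1, 24.4% of Hnrnpa2b1 and 24.3% of Hnrnph3. The richest 90 bases are shown for the 2 members with the highest fold changes, with glycine codons in capitals.
Hnrnpa2b1: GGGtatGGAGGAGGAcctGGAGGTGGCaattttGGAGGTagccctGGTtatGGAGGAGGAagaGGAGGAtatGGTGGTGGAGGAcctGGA
Hnrnpa0: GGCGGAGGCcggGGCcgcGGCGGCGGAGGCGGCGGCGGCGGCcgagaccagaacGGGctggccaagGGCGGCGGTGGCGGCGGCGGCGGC

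**Figure D1:**
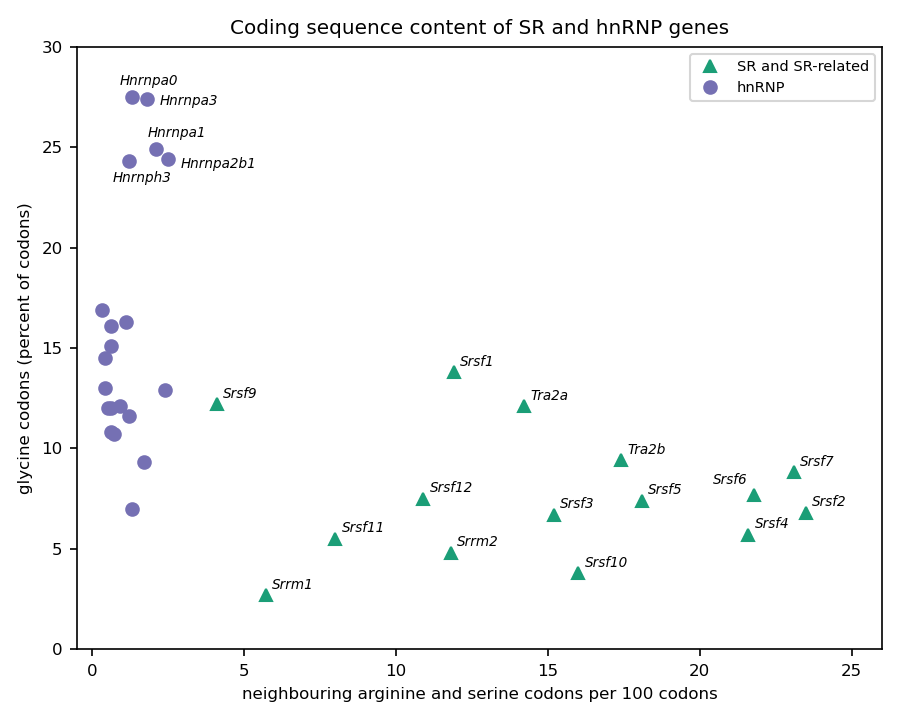
Each point is 1 of the 35 genes; the x axis gives neighbouring arginine and serine codons per 100 codons and the y axis the percent of codons that encode glycine. The SR and SR-related genes (triangles) lie at 4.1 or more on the x axis, and the hnRNP genes (circles) at 2.5 or less.

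The SR and hnRNP transcripts were more often higher than lower in the PM libraries. Of the 35 genes, 19 rose, 5 fell and 11 did not pass the test (edgeR quasi-likelihood test with the set as a covariate, Benjamini-Hochberg adjusted over all tested genes, threshold 0.05). Among all tested genes 32.7% rose and 36.4% fell, 69.1% in all, so a single call carries little weight. The share of members that rose was 54.3% and the share that fell was 14.3%. The members' median log2 fold change was 0.29 against −0.045 for all tested genes. In 15 members every PM library lay above every vehicle library, which held for 24.3% of all tested genes, and in 2 members, Srrm2 and Hnrnpr, every PM library lay below, which held for 28.1%. When the fit also removed each library's trend with transcript length and GC content, 22 members rose and 2 fell. In that fit 5089 of all 14424 tested genes rose and 4011 fell. Length there was that of each gene's longest annotated transcript, a coding one where present, and no other choice was tried.

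Of the 20 hnRNP genes 12 rose and 2 fell, with a median log2 fold change of 0.39. Of the 15 SR and SR-related genes 7 rose and 3 fell, with a median of 0.20. Within the latter, 5 of the 8 classical SR genes rose, and all 8 had log2 fold changes above 0 in edgeR and in DESeq2, so none fell at an unadjusted p either. The 7 SR-related genes had 2 that rose and 3 that fell. The other 3 classical SR genes lay between 0.20 and 0.26 on the log2 scale with adjusted p-values between 0.073 and 0.087. Without vehicle 2, Srsf2, Srsf5 and Srsf6 passed (edgeR, adjusted p = 0.029, 0.0484 and 0.0342). Of the 15 SR and SR-related genes, 10 rose with DESeq2 size factors, with the DESeq2 test or with no filter on low counts. With no set covariate or with the length and GC trend removed, 6 rose.

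**Figure D2:**
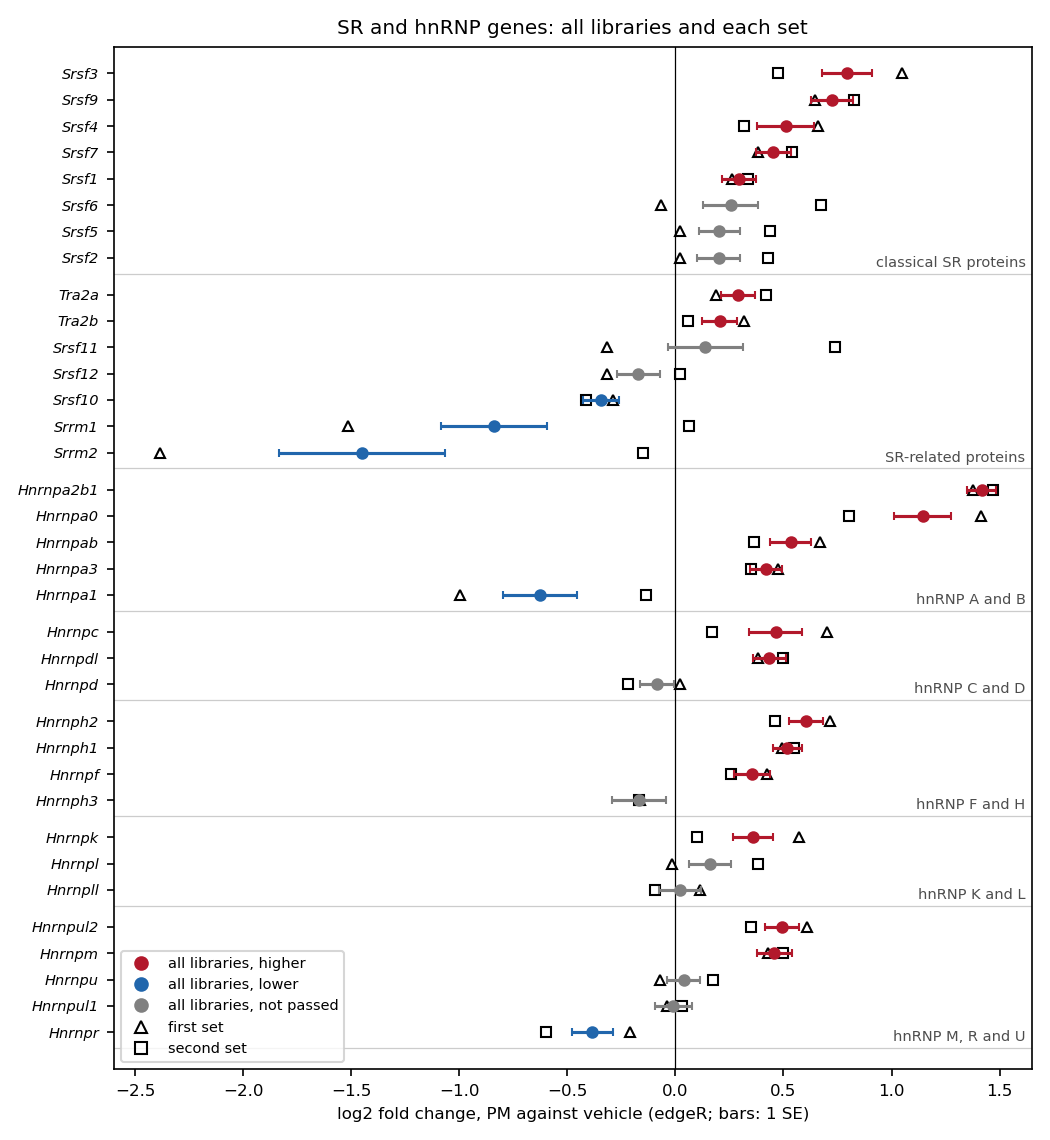
Filled circles give the log2 fold change of PM against vehicle over all libraries with 1 standard error (red rose, blue fell, grey did not pass), triangles the first set and squares the second set, for each of the 35 genes by role. Hnrnpa2b1 is highest at 1.42 and Srrm2 lowest at −1.45, and for Srrm2 and Srrm1 the triangle lies far to the left of the square.

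Among the classical SR genes, Srsf3 had the largest rise. Srsf3 encodes the smallest SR protein, which also links transcripts to the export receptor. In the plot of counts per library it stood at 74.4, 85.7, 69.8, 84.8 and 76.3 CPM in vehicle libraries 1 to 5. The PM libraries of the first set held 136, 165 and 175 CPM and those of the second 113, 112 and 109.8 CPM. Both PM sets were above all vehicle libraries, and the first was above the second. The log2 change with PM was 0.79 (SE 0.117, adjusted p = 4.06e-05), with 1.05 for the first and 0.47 for the second set. The Srsf3 gene lies at chr17:29032628-29043373 on the plus strand of GRCm38 and has 6 exons in its longest coding transcript. In its coding sequence 75.3% of the 100-base windows also occur in other annotated genes, among them 3 pseudogene copies.

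Srsf9, a close relative of Srsf1, was higher in every PM library than in any vehicle library; it was chosen here after its values were seen. It measured 29.7, 37.6, 28.1, 32.0 and 35.6 CPM in vehicle libraries 1 to 5. PM libraries 1 to 3 held 50.9, 48.7 and 49.5 CPM and PM libraries 4 to 6 held 64.1, 62.7 and 53.7 CPM. The ranges of the groups did not overlap, and the difference of the effect between sets did not pass (adjusted p = 0.452). On the log2 scale the change was 0.72 (SE 0.096, adjusted p = 1.51e-05). Removing the trend with length and GC content brought it to −0.051 (adjusted p = 0.667), which ends the call.

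The other classical SR genes that rose were Srsf4, Srsf7 and Srsf1, at log2 fold changes of 0.51, 0.45 and 0.29. Srsf1 is the founding splicing enhancer protein of the family, and Srsf7 shares the export role of Srsf3. Srsf4 was the least abundant classical SR gene, at 7.18 ± 1.06 CPM in vehicle and 10.1 ± 1.17 CPM in PM (SD, n = 5 and 6), and 43.0% of its exon bases are overlapped on the other strand by Gm12992. Whether the counting used strand is not given here, so the reads of these 2 genes cannot be told apart. Removing the length and GC trend left Srsf4 at 0.043 on the log2 scale (adjusted p = 0.819).

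Srsf5, a relative of Srsf4 and Srsf6, was the most abundant classical SR gene. Its vehicle libraries 1 to 5 held 162, 174, 163, 168 and 179.6 CPM. In PM libraries 1 to 3 the level was 190.5, 159.6 and 155 CPM, and in PM 4 to 6 it was 237, 245 and 225 CPM. The second set lay wholly above the vehicle libraries, and the first overlapped them. Over all libraries the log2 fold change was 0.20 (SE 0.0951, adjusted p = 0.0729). Srsf2, a component of nuclear speckles, and Srsf6 showed the same layout, with log2 fold changes of 0.021 and −0.065 in the first set against 0.43 and 0.67 in the second. The effects of Srsf2, Srsf5 and Srsf6 differed between the sets (adjusted p = 0.0475, 0.0335 and 0.00103). Srsf6 passed over all libraries after removal of the length and GC trend (0.63, adjusted p = 0.00216). Srsf5 and Srsf2 did not (0.079 and −0.01, adjusted p = 0.606 and 0.928).

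Srrm2, a large scaffold protein of nuclear speckles, had the largest fall of all members and the largest difference between sets. It lies at chr17:23790532-23824741 on the plus strand, with 15 exons and a longest coding transcript of 8864 bases. In the 5 vehicle libraries the level was 1188, 959.9, 1224, 997 and 978 CPM. The first PM set held 293, 193 and 160.3 CPM, while the second held 879, 934 and 859 CPM. All PM libraries were below all vehicle libraries, but the first set was far below and the second just below. As a log2 change this was −1.45 (SE 0.383, adjusted p = 0.00494) over all libraries, −2.38 in the first set (adjusted p = 5.05e-08) and −0.15 in the second (adjusted p = 0.509). The difference between the sets was 2.23 on the log2 scale (adjusted p = 9.5e-05). After removal of the length and GC trend the value over all libraries was −0.52 and did not pass (adjusted p = 0.172), with −1.34 for the first set (adjusted p = 2.51e-08) and 0.59 for the second (adjusted p = 0.000694), past the threshold in opposite directions.

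Srrm1, a splicing coactivator that works with Srrm2 and joins the exon junction complex, had the same layout; it was also chosen after its values were seen. The vehicle level was 207, 202, 213, 195 and 196 CPM in libraries 1 to 5. Values in PM 1 to 3 were 86.2, 67.0 and 64.6 CPM, and in PM 4 to 6 they were 199.9, 211 and 202 CPM. The first PM set was below every other library, and the second overlapped the vehicle libraries. The log2 fold change was −0.84 (SE 0.245, adjusted p = 0.00801), −1.51 within the first set, 0.062 within the second, and the sets differed by 1.58 (adjusted p = 1.4e-05). Only the 3 PM libraries of the first set lay below the vehicle range.

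In the joint fit of both sets Srsf11 was the only member past the threshold in opposite directions, which held for 3.41% of all tested genes. The protein, also called p54, has a long RS-rich tail. Vehicle libraries 1 to 5 lay close together at 117, 115, 112, 114 and 115 CPM. Levels reached 109, 85.0 and 82.1 CPM in PM libraries 1 to 3 and 188, 213 and 174 CPM in PM 4 to 6. The first set was below all vehicle libraries and the second above all of them. On the log2 scale PM against vehicle was −0.32 for the first set (adjusted p = 0.0151) and 0.74 for the second (adjusted p = 7.07e-05), and the difference was 1.06 (adjusted p = 0.000307). Over all libraries it was 0.14 and did not pass (adjusted p = 0.496). After removal of the length and GC trend the first set no longer passed for Srsf11 (−0.12, adjusted p = 0.339), while the second stood at 1.07 (adjusted p = 4.49e-06). In the joint fit 5 SR and SR-related genes fell in the first set, against 2 when that set was fitted alone. Calls of a fall within the first set thus depend on the fit.

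Srsf10, which can act as a splicing repressor when dephosphorylated, was the only member that fell in both sets in the joint fit, at −0.29 and −0.42. Means were 86.7 ± 8.88 CPM for vehicle and 68.1 ± 4.04 CPM for PM (SD, n = 5 and 6), and the groups overlapped through 1 PM and 1 vehicle library. Its relative Srsf12 had a log2 fold change of −0.17 (adjusted p = 0.139). After removal of the length and GC trend Srsf10 stood at 0.10 on the log2 scale and did not pass (adjusted p = 0.199).

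The transformer-2 homologues Tra2a and Tra2b, which bind GAA-rich exonic enhancers, rose by small amounts. Tra2a held 56.9, 63.5, 53.6, 60.3 and 67.1 CPM in vehicle libraries 1 to 5. The first PM set held 66.4, 67.3 and 64.4 CPM and the second 83.3, 86.0 and 86.7 CPM. The first set lay at the upper end of the vehicle range and the second was above it. The log2 fold change of Tra2a was 0.29 (SE 0.0785, adjusted p = 0.00498). That of Tra2b was 0.20 (adjusted p = 0.0366) and did not pass once vehicle 1, 2 or 3 or PM 2 or 3 was left out, with values of 0.15 to 0.20. The log2 ratio of Tra2a to Tra2b changed by 0.14 between the groups and did not pass (two-sided exact permutation test, adjusted p = 0.442).

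**Figure D3:**
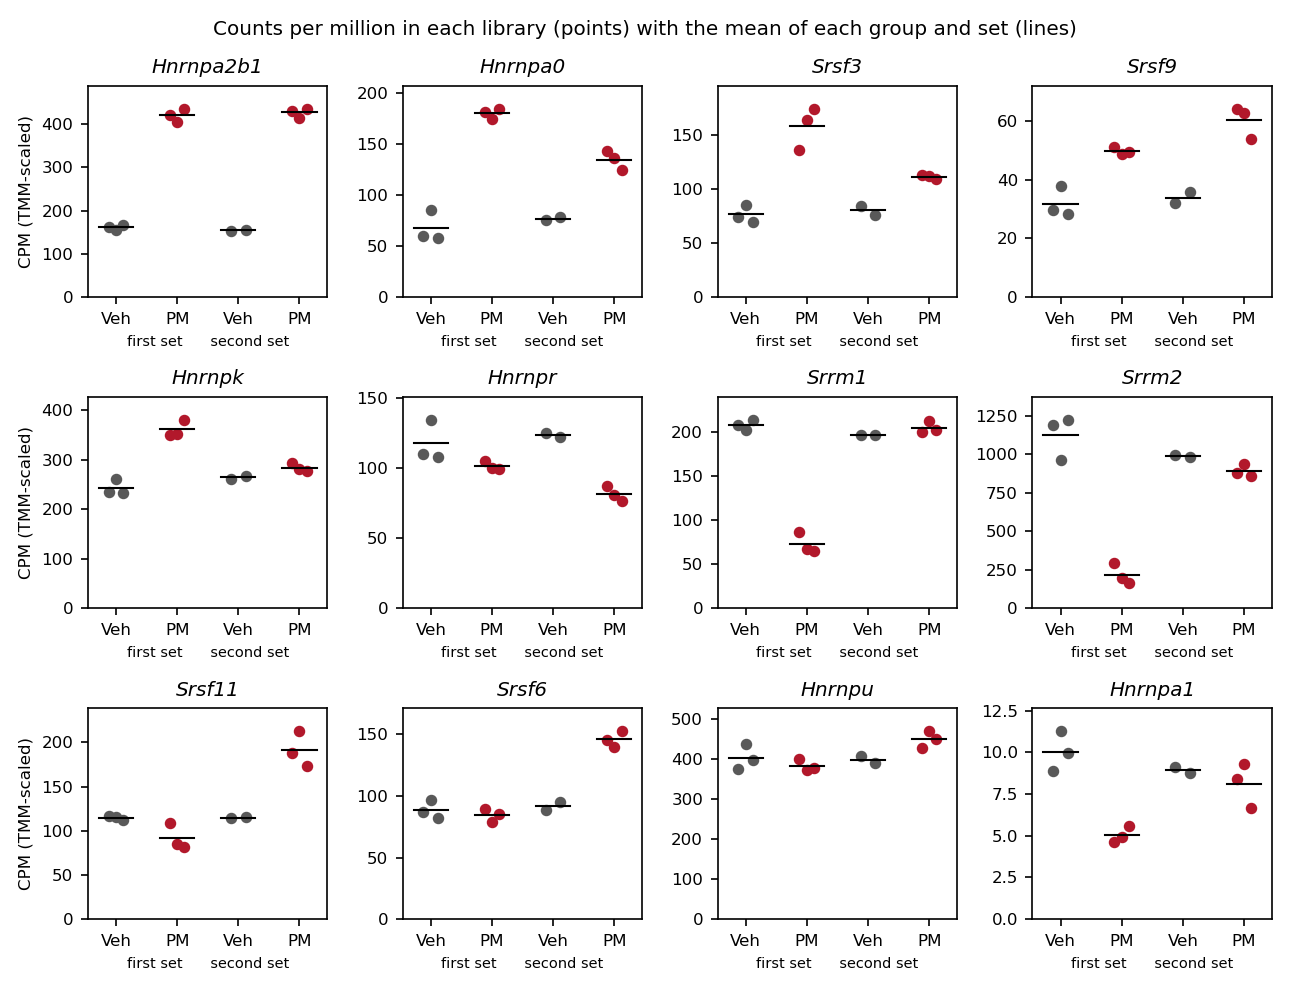
Points give CPM in each library for 12 of the genes, grey for vehicle and red for PM, and lines the mean of each group and set; each panel starts at 0. Hnrnpa2b1 separates the groups in both sets, Srrm1 and Srrm2 are low only in the first PM set, and Srsf11 lies on opposite sides of its vehicle libraries in the 2 sets.

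The hnRNP A and B genes held both of the largest rises. Hnrnpa2b1 encodes a protein that binds RNA in the nucleus and in neuronal transport granules, and lies at chr6:51460932-51469894 on the minus strand with 12 exons. Across vehicle libraries 1 to 5 the values were 163, 155, 168, 153 and 156 CPM. PM libraries 1 to 3 held 421, 406 and 436 CPM and PM libraries 4 to 6 held 431, 415 and 436 CPM. The groups were far apart and the PM sets were alike. Means were 159.0 ± 6.25 CPM in vehicle and 424.2 ± 12.4 CPM in PM (SD, n = 5 and 6), or 1.42 on the log2 scale (SE 0.0674, adjusted p = 2.68e-09), with 1.38 and 1.47 in the sets. The difference between the sets did not pass (0.093, adjusted p = 0.604).

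Hnrnpa0, an RNA-binding protein encoded by a gene with 1 exon, had the next largest rise, again chosen after its values were seen. Vehicle libraries 1 to 5 held 59.5, 85.3, 58.1, 75.3 and 78.7 CPM. In PM libraries 1 to 3 the level was 182, 175 and 185 CPM, and in PM 4 to 6 it was 143, 136 and 125 CPM. All PM libraries were above all vehicle libraries, and the first set above the second. The log2 change with PM was 1.15 (SE 0.132, adjusted p = 4.11e-06), and the sets differed by −0.61 (adjusted p = 0.0195). Hnrnpab and Hnrnpa3 rose by 0.53 and 0.42 on the log2 scale, and for Hnrnpa3 97.6% of coding windows are shared with other genes, including 23 pseudogene copies.

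Hnrnpa1, a classical silencer-binding protein, was the only member of the A and B group that fell. In the 5 vehicle libraries the level was 8.87, 11.3, 9.94, 9.15 and 8.79 CPM. Values in PM 1 to 3 were 4.62, 4.91 and 5.59 CPM, and in PM 4 to 6 they were 8.39, 9.32 and 6.64 CPM. The first set was below all vehicle libraries and the second overlapped them. On the log2 scale the change was −0.63 (SE 0.172, adjusted p = 0.00528), with −0.995 for the first set against −0.14 for the second, a difference of 0.86 (adjusted p = 0.0191).

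The counts of Hnrnpa1 are uncertain because of its copies. The gene lies at chr15:103240432-103246692 on the plus strand, and 75.0% of its 100-base coding windows also occur in other annotated genes, including 9 pseudogene copies. Coding bases 125 to 224 show this, since the same 100 bases are also held by Hnrnpa1l2-ps2 (chr15:22713868-22714830, minus strand), Gm10052 (chr9:123689233-123690192, minus strand) and Gm5643 (chrX:142297565-142298530, plus strand), and a read of that length from this stretch has no unique place.
Hnrnpa1: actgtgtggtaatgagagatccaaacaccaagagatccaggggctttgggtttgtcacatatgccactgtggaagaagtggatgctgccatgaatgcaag
Of these copies Gm10052 held 0 counts in every library, which allows up to 0.169 to 0.499 CPM by library (3 counts, for counting error only). Gm5643, 98.7% identical over 85.4% of the coding sequence, held 135 counts over the 5 vehicle libraries and 3 over the 6 PM libraries, or 2.61 ± 1.20 and 0.0316 ± 0.0512 CPM (SD, n = 5 and 6, edgeR adjusted p = 1.07e-06). The copy and its parent were thus both lower in PM, and the part of multiple alignment in either value was not tested. Shared coding windows also made up 87.1% of Hnrnpf, 56.3% of Tra2b, 56.1% of Hnrnpk, 55.2% of Srsf10 and 36.6% of Srsf5, so their counts carry the same uncertainty. In Hnrnpm 27.9% of all windows were shared, all outside the coding sequence, and March2 overlaps its span on the same strand. Exons on the other strand overlap 29.1% of Hnrnpab (Phykpl), 26.5% of Hnrnpf and 25.3% of Srsf2 (Mettl23 and Mfsd11).

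The hnRNP C and D genes had 2 that rose. Hnrnpc, which binds uridine tracts and guards against cryptic exons, held 143, 188, 137, 163 and 184 CPM in vehicle libraries 1 to 5. Levels reached 224, 265 and 271 CPM in PM libraries 1 to 3 and 204, 177 and 207 CPM in PM 4 to 6. The first set was above all vehicle libraries and the second overlapped them. As a log2 change this was 0.46 (SE 0.123, adjusted p = 0.00415), and the sets differed by −0.53 (adjusted p = 0.0368). Hnrnpd, also known as AUF1 and a regulator of AU-rich transcripts, had a log2 fold change of −0.084 (adjusted p = 0.358), and its relative Hnrnpdl rose by 0.43 (adjusted p = 0.00018).

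Within each library the log2 ratio of Hnrnpd to Hnrnpdl fell from 0.54 ± 0.087 in vehicle to 0.017 ± 0.195 in PM (SD, n = 5 and 6). Every PM library was below every vehicle library (two-sided exact permutation test over the 462 ways to split the libraries, p = 0.00217, which is the lowest value possible, adjusted p = 0.013 over 6 pairs). Within the sets the difference was −0.35 and −0.72. The longest coding transcripts differ in length (6811 bases for Hnrnpd and 2752 for Hnrnpdl), and the direction does not hold after removal of the length and GC trend, where Hnrnpd stood at 0.96 (adjusted p = 4.21e-08) and Hnrnpdl at 0.59 (adjusted p = 8.45e-06) on the log2 scale.

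The hnRNP F and H genes, which bind runs of guanine, had 3 of 4 that rose. Hnrnph2 had the largest rise, with 85.0, 79.3, 82.5, 78.5 and 90.0 CPM in vehicle libraries 1 to 5. The first PM set held 138, 135 and 133 CPM and the second 123, 108 and 118 CPM. The groups did not overlap. The log2 fold change was 0.60 (SE 0.0784, adjusted p = 1.24e-05). The gene is X-linked and 28.1% of its coding windows occur elsewhere.

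Hnrnph1 was the most abundant of the group. Its vehicle libraries 1 to 5 held 159.8, 164, 164, 163 and 155 CPM. PM libraries 1 to 3 held 226, 223 and 238 CPM and PM libraries 4 to 6 held 216, 244 and 238 CPM. The groups did not overlap, and the sets were alike. The log2 change with PM was 0.52 (SE 0.0669, adjusted p = 1.2e-05). Hnrnpf rose by 0.35 and Hnrnph3 had a value of −0.17 (adjusted p = 0.252). The ratio of Hnrnph1 to Hnrnph2 changed by −0.078 and did not pass (two-sided exact permutation test, adjusted p = 0.442).

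Hnrnpk, which binds cytosine-rich RNA and DNA through KH domains, was the only K and L gene that rose. It lies at chr13:58391142-58403343 on the minus strand, with Mir7-1 annotated within it. The vehicle level was 235, 261, 233, 261 and 268 CPM in libraries 1 to 5. In PM libraries 1 to 3 the level was 349, 352 and 381 CPM, and in PM 4 to 6 it was 293, 280.4 and 277 CPM. Both PM sets were above all vehicle libraries, the second only just. On the log2 scale the change was 0.36 (SE 0.0931, adjusted p = 0.00357), and the sets differed by −0.47 (adjusted p = 0.0115). Hnrnpl, a binder of CA repeats, had a log2 fold change of 0.16 (adjusted p = 0.154) and Hnrnpll, known from T cell splicing, one of 0.022 (adjusted p = 0.854), or 0.28 after removal of the length and GC trend (adjusted p = 0.00941). The ratio of Hnrnpl to Hnrnpll changed by 0.15 and did not pass (two-sided exact permutation test, adjusted p = 0.442).

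In the remaining group, Hnrnpul2 and Hnrnpm rose and Hnrnpr fell. Hnrnpul2 held 192, 197, 209, 212 and 188 CPM in vehicle libraries 1 to 5. Values in PM 1 to 3 were 324, 296 and 292 CPM, and in PM 4 to 6 they were 251, 250.0 and 264 CPM. The groups did not overlap. As a log2 change this was 0.49 (SE 0.0779, adjusted p = 7.51e-05), and that of Hnrnpm was 0.46 (adjusted p = 0.000168). Hnrnpul1, a relative of Hnrnpul2, had a value of −0.010 (adjusted p = 0.923). The log2 ratio of Hnrnpul1 to Hnrnpul2 fell from −0.98 ± 0.134 in vehicle to −1.48 ± 0.155 in PM (SD, n = 5 and 6), and the groups were apart (two-sided exact permutation test, p = 0.00433, adjusted p = 0.013).

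Hnrnpr, which takes part in axonal transport of messenger RNA in motor neurons, was lower in every PM library. Across vehicle libraries 1 to 5 the values were 109.7, 134, 108, 125 and 122 CPM. Levels reached 105, 99.8 and 99.5 CPM in PM libraries 1 to 3 and 87.1, 80.6 and 76.6 CPM in PM 4 to 6. The second set lay lowest and the first just under the vehicle range. The log2 fold change was −0.38 (SE 0.0936, adjusted p = 0.00239). Its longest coding transcript has 21452 bases, the longest of the members, and removing the length and GC trend gave 1.56 (adjusted p = 1.27e-07), a call in the opposite direction.

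Hnrnpu, a scaffold attachment protein that organises chromatin and is needed for Xist localisation, had the highest mean CPM of its group over all libraries and did not pass the test. Vehicle libraries 1 to 5 held 374, 437, 396, 407 and 389 CPM. The first PM set held 399.6, 373 and 377 CPM and the second 427, 471 and 450.4 CPM. The groups overlapped. The log2 change with PM was 0.038 (SE 0.0778, adjusted p = 0.681). Removing the length and GC trend brought Hnrnpu past the threshold, at 1.24 (adjusted p = 6.39e-08), with 1.06 and 1.47 in the sets.

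The order of members by level, as CPM per kilobase of the longest coding transcript, also differed between the groups. In vehicle libraries Srrm2 was first (121 ± 14.2 CPM per kilobase), then Srsf5 (108 ± 4.71), Hnrnpa2b1 (92.0 ± 3.62), Hnrnpk (84.7 ± 5.47) and Hnrnph1 (66.5 ± 1.52; SD, n = 5). The ranges of Srrm2 and Srsf5 overlapped, as did those of Hnrnpa2b1 and Hnrnpk, while Srsf5 lay above Hnrnpa2b1 and Hnrnpk above Hnrnph1 in every vehicle library. In PM libraries Hnrnpa2b1 was first (245 ± 7.19), then Srsf5 (129 ± 25.0) and Hnrnpk (108 ± 14.9; SD, n = 6), and Srrm2 was ninth by its mean with a range of 18.1 to 105. Srsf4, Hnrnph3, Hnrnpa1 and Hnrnpr were lowest in both groups, at 3.18 to 5.59 CPM per kilobase in vehicle. The value of Hnrnpr is lowered by the length of its annotated transcript.

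The 2 sets gave the PM effect in separate libraries, with the spread shared in 1 joint fit. In the first set 18 members rose and 6 fell (32.1% and 38.9% of all tested genes, 71.0% in all). In the second 19 rose and 2 fell (32.3% and 32.5%, 64.8% in all). In both sets 13 members rose, against 23.1% of all tested genes, and 1 fell, against 26.2%. These 13 were Srsf1, Srsf3, Srsf7, Srsf9, Hnrnpa0, Hnrnpa2b1, Hnrnpa3, Hnrnpab, Hnrnpdl, Hnrnph1, Hnrnph2, Hnrnpm and Hnrnpul2, of which 9 are hnRNP genes.

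The effect differed between sets for 12 members, against 29.6% of all tested genes. In 8 of these the second set was the higher (17.5% of all tested genes, with 12.1% the other way): Srrm2, Srrm1, Srsf11, Hnrnpa1, Srsf6, Srsf5, Srsf2 and Hnrnpl. In Hnrnpa0, Srsf3, Hnrnpc and Hnrnpk the first set was the higher. By family, 6 of the 7 SR and SR-related genes that differed were higher in the second set, and 2 of the 5 hnRNP genes. Reads counted to no annotated feature also differed between the PM sets (18.8 to 21.4% against 29.3 to 34.0%). Xist differed between the vehicle libraries of the sets (1.74 to 3.16 CPM against 2280 to 2420 CPM). The part of either in these differences was not tested. The count was 7 without vehicle 3, 5 without vehicle 4 and 5 without vehicle 5, and the second set has only 2 vehicle libraries. The members' median log2 fold change was 0.26 for the first set and 0.35 for the second, against −0.088 and 0.008 for all tested genes.

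**Figure D4:**
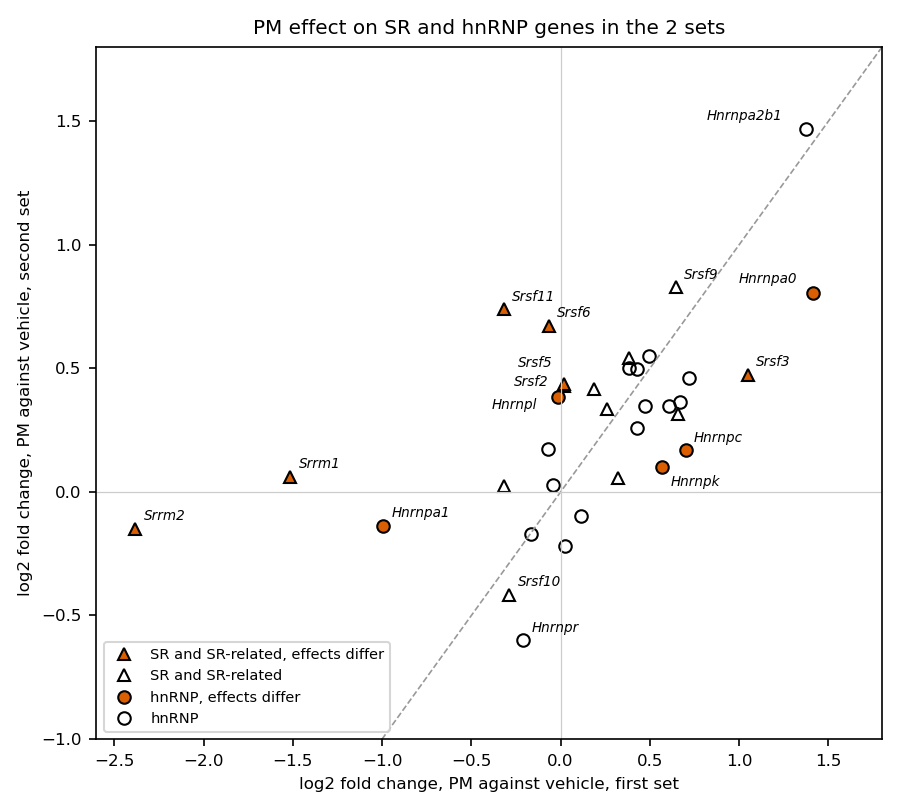
Each point is 1 member, with its log2 fold change in the first set on the x axis and in the second set on the y axis; filled points differ between the sets and the dashed line marks equal values. Srrm2, Srrm1 and Hnrnpa1 lie to the left near 0 on the y axis, Srsf11 and Srsf6 lie above the line, and Hnrnpa2b1 lies close to it.

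The log2 ratio of Srrm1 to Srrm2 rose from −2.39 ± 0.122 in vehicle to −1.83 ± 0.354 in PM (SD, n = 5 and 6), with every PM library above every vehicle library (two-sided exact permutation test, p = 0.00866, adjusted p = 0.0173). Within the sets the difference was 0.90 and 0.21. Within a single set the smallest p the test can give is 0.1, so no pair can pass there. This direction does not hold either once the length and GC trend is removed, since Srrm1 then stood at −0.76 (adjusted p = 0.0092) and Srrm2 at −0.52 (adjusted p = 0.172) on the log2 scale.

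The PM effect fell with transcript length across all tested genes, and this touches the members. Across 14424 tested genes with an annotated transcript the rank correlation between length and log2 fold change was −0.49, and across the 35 members it was −0.36, as a description over genes that share the same libraries. The median log2 fold change of all genes went from 0.64 in the shortest group of genes (median 1276 bases) to −0.86 in the longest (median 6786 bases), where 5.44% rose and 76.1% fell. The 5 members in that longest group, Hnrnpd, Hnrnpr, Hnrnpu, Srrm2 and Srsf1, had a median of −0.084, with 1 that rose and 2 that fell. In the group with a median of 4336 bases, where 19.1% of genes rose and 44.3% fell, 4 of 7 members rose and 2 fell. The members' median with the trend removed was 0.59 against 0.060 for all genes.

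**Figure D5:**
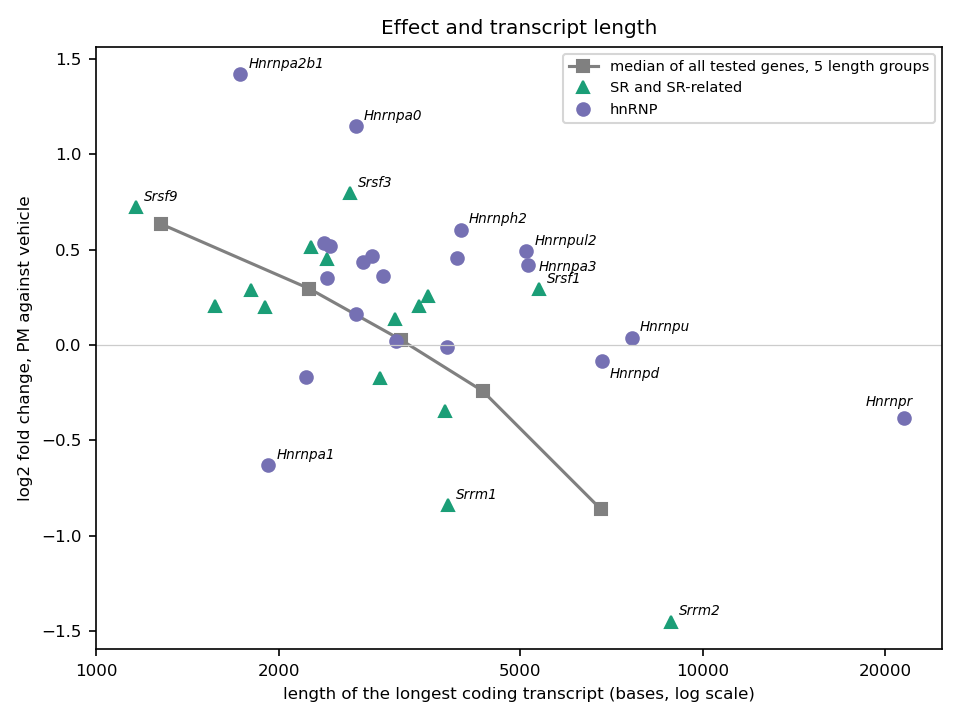
Each coloured point is 1 member, with the length of its longest coding transcript in bases on a log axis and its log2 fold change on the y axis; grey squares give the median of all tested genes in 5 groups by length. The grey line falls from 0.64 to −0.86, and Hnrnpul2, Hnrnpa3, Srsf1, Hnrnpu and Hnrnpd lie above it while Srrm2 lies at −1.45.

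Annotated transcripts of the members often carry labels for nonsense-mediated decay or a retained intron, a property the naming rule did not use. In GENCODE M21 a transcript labelled for nonsense-mediated decay is present in 13 of the 15 SR and SR-related genes (86.7%) and in 10 of the 20 hnRNP genes, against 27.5% of 13624 tested protein-coding genes. A transcript with a retained intron is present in 26 of the 35 (74.3%) against 56.9%. Gene counts do not separate such transcripts from coding ones, so the values above are sums over both. The shares do not take into account how many transcripts are annotated for each gene, and self-limitation was not tested.

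Genes that act on or beside these factors moved in several directions. Of 12 genes for SR phosphorylation or for nuclear import of SR or hnRNP proteins 1 rose and 6 fell, with a median log2 fold change of −0.36. The tallies differed by set, with 1 that rose and 8 that fell in the first (median −0.54) and 5 that rose and 4 that fell in the second (median 0.014), and the effect differed between sets for 6 of the 12. The nuclear import receptor Tnpo1, which carries hnRNP A proteins, fell by 2.02 on the log2 scale, the kinase Dyrk1a by 0.84 and the SR kinase Srpk2 by 0.55, while Ppp1r8, which targets a phosphatase to speckles, rose by 0.61. Of 14 hnRNP-class genes under other names 5 rose and 4 fell. Raly, a relative of Hnrnpc, rose by 1.87, the cold-inducible Cirbp by 1.32 and the poly(C)-binding Pcbp1 by 0.41, and the polypyrimidine tract proteins Ptbp3 and Ptbp2 fell by 0.99 and 0.38 and Rbmx by 0.41.

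Of 23 neural and tissue splicing regulators 6 rose and 14 fell, with a median of −0.52. Celf2, Qk and Mbnl1, each a sequence-specific regulator of alternative exons, fell by 1.15, 1.64 and 1.05. Khdrbs3, Khdrbs1 and Elavl3 rose by 0.58, 0.38 and 0.50. The core proteins of the early spliceosome went the other way, with 16 that rose and 2 that fell of 22 tested and a median of 0.61. The Sm proteins Snrpd2 and Snrpb rose by 2.33 and 1.82 and the U2 protein Snrpa1 by 1.24, while Sf3b3 fell by 0.56 and Snrpn by 0.82. Snrpn had low counts, with means of 2.65 CPM in vehicle and 1.49 CPM in PM (edgeR, adjusted p = 0.0413). Its groups overlapped, and it passed in neither set (adjusted p = 0.101 and 0.135). Of all tested genes 59.5% rose in the shortest length group and 76.1% fell in the longest. The part of transcript length in the differences between any of these lists was not tested.

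Proteins of the tri-snRNP and the later spliceosome were divided, with 7 that rose and 6 that fell of 17. Prpf31, Snrnp40 and Ddx23 rose by 0.96, 0.77 and 0.72, and the large proteins Prpf8, Aqr and Snrnp200 fell by 1.24, 1.15 and 0.67. Of 16 genes of the exon junction complex and nonsense-mediated decay 7 rose and 4 fell, with 7 and 6 in the first set and 10 and 5 in the second. Upf3a, Eif4a3 and Magoh rose by 1.03, 0.89 and 1.26, and Smg1 and Smg6 fell by 1.36 and 0.82. These lists were compiled with earlier results of these data known, and their counts stand beside 32.7% that rose and 36.4% that fell of all tested genes.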

How the data were processed

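Hippocampal RNA was sequenced in 11 libraries (paired ends of 100 bp), from RNA with an integrity number above 8.0. Ribosomal RNA was depleted, per the labels' protocols, although the molecule label names polyA RNA. The authors deposited 1 table of whole-number counts per gene and library. Per the submitters' processing notes the tools were FastQC 0.11.9, Trimmomatic 0.36, STAR, SAMtools 1.9, Picard 2.9.2 and HTSeq 0.9.1, and builds mm10 and hg19 are named; the strand setting was not given. Summary lines that name no gene, 18.8 to 62.0% of reads for the no-feature line alone, were left out of library sizes.

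Counts were tested with edgeR 4.0.16 (R 4.3.3; robust quasi-likelihood, TMM, filterByExpr with a minimum count of 10), with the set as a covariate. Effects within sets and their difference came from 1 joint fit of group and set. Scripts were tested on simulated data. Transcripts, lengths and positions came from GENCODE M21 (GRCm38), which matched 95.7% of gene names. Alternatives used DESeq2 1.42.0 and, for smooth trends in length and GC content, mgcv 1.9.3. Values per library are given for the largest rise, the largest fall and the highest level in each role group, for members called in opposite directions in the sets, and for Srsf9, Srrm1 and Hnrnpa0, added after their values were seen; pathway lists are named by up to 3 smallest p-values in each direction, of which 1 gene is not reported here. The members and lists were chosen with earlier results of these data known.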

Additional observations from a re-analysis of the deposited data

Results flagged for a closer look

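Of 70 groups of libraries examined (2 for each member), 2 held a library that stood apart from the rest of its group, where chance gives about 1 in 20. Srsf10 measured 76.0 CPM in PM library 3, above the other PM libraries, and Srsf12 measured 33.4 CPM in PM library 4. Without that library Srsf12 passed the test, at −0.23 on the log2 scale (edgeR, adjusted p = 0.0349).

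The effect of PM differed between the sets in 12 of the 35 members by the test of the difference itself, against 29.6% of all tested genes. The second set minus the first was 2.23 on the log2 scale for Srrm2, 1.58 for Srrm1, 1.06 for Srsf11, 0.86 for Hnrnpa1, 0.74 for Srsf6, 0.42 for Srsf5, 0.41 for Srsf2 and 0.40 for Hnrnpl. It was −0.61 for Hnrnpa0, −0.58 for Srsf3, −0.53 for Hnrnpc and −0.47 for Hnrnpk. Signs were opposite in the sets for 9 members, and the share over all tested genes was not counted. The number of members that differed was 7 without vehicle 3, 5 without vehicle 4 and 5 without vehicle 5.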

How the results depend on the processing

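Counts of members moved with several settings. Those that fell numbered 3 with no set covariate, 2 with the length and GC trend removed, and 3 with either the first or the second set alone; SR and SR-related genes that fell numbered 1 with no set covariate, 1 with the trend removed and 1 with the second set alone, and hnRNP genes that fell numbered 1 with the trend removed and 1 with the first set alone. SR and SR-related genes that rose numbered 7 in the main fit and 10 with DESeq2 size factors, the DESeq2 test or no filter on low counts. They numbered 9 with the second set alone and 6 with no set covariate, a replicate block or the trend removed. Of the hnRNP genes, 12 rose in the main fit, 16 with the trend removed, 13 with no filter and 11 with the second set alone. Leaving out each library in turn gave 18 to 21 members that rose and 5 to 6 that fell. Those that differed between sets numbered 5 to 14 (5 without vehicle 4 or vehicle 5, 7 without vehicle 3). Ratios that no longer passed within a set were Hnrnpd to Hnrnpdl (−0.35 and −0.72), Hnrnpul1 to Hnrnpul2 (−0.64 and −0.33) and Srrm1 to Srrm2 (0.90 and 0.21), since too few libraries remain there. Ratios of opposite sign were Hnrnph1 to Hnrnph2 in the second set (0.082), and Hnrnpl to Hnrnpll (−0.14) and Tra2a to Tra2b (−0.13) in the first.

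Signs reversed mainly in members near 0, and the cause was not tested. With the trend removed the log2 fold changes were 1.56 for Hnrnpr, 0.96 for Hnrnpd, −0.093 for Hnrnpl, 0.10 for Srsf10, 0.055 for Srsf12, −0.01 for Srsf2 and −0.051 for Srsf9. With the first set alone they were 0.12 for Hnrnpd, −0.22 for Srsf11 and 0.057 for Hnrnpul1, and with the second alone 0.072 for Srrm1, 0.033 for Srsf12, −0.086 for Hnrnpll and 0.039 for Hnrnpul1. Hnrnpul1 was 0.019 with DESeq2 size factors and with the DESeq2 test, 0.084 with no filter on low counts (where Hnrnpd was 0.009), and 0.011, 0.023, 0.025 and 0.058 without vehicle 1, vehicle 3, PM 3 or PM 6. Leaving out 1 library at a time gave −0.055 (vehicle 2) to 0.058 (PM 6) for Hnrnpul1, −0.043 (vehicle 1) to 0.092 (vehicle 2) for Hnrnpll, which was −0.017 without vehicle 3 and −0.009 without PM 3, and −0.001 (vehicle 5) to 0.083 (vehicle 2) for Hnrnpu.

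Replicate numbers did not pair the libraries (correlations of deviations −0.176 to −0.005). With the replicate number as a block, Hnrnpul1 was 0.006 and 33 members kept their direction and their side of the threshold.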

Other observations

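The summed level of the 35 members was 0.486 to 0.503% of the scaled total in vehicle libraries, 0.485 to 0.512% in the first PM set and 0.582 to 0.602% in the second. The sum includes Srrm2, the member with the highest CPM in every vehicle library.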
